A study of Saccharomyces cerevisiae with 4 samples.

Results

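The glycerol and HOG (high osmolarity glycerol) genes of *Saccharomyces cerevisiae* were followed in cells lacking the high-affinity potassium uptake system. The set was fixed by systematic name and holds 10 of the 6212 genes listed, with GPD1, GPD2, GPP1 and GPP2 for glycerol synthesis, STL1 and FPS1 for glycerol transport, SLN1 and SHO1 for osmosensing, and PBS2 and HOG1 for the kinase cascade. The strain studied was a trk1 trk2 double mutant of BY4741, a laboratory haploid of mating type a, and it was set against wild-type BY4741. Both strains grew at 28 °C in a Translucent medium that held only 15 µM potassium of its own and was given 50 mM KCl, and both were collected in log phase (A600 of 0.6). Both cDNAs shared each of 4 arrays in opposite dyes, and the arrays came from 2 experiments that were each hybridised in both dye orientations. The mutant was in Cy5 on arrays 1 and 4 and in Cy3 on arrays 2 and 3. The labels do not pair the arrays, and the pairing used here, arrays 1 and 2 against arrays 3 and 4, rests on the wording of their descriptions. The labels give no deletion alleles, and they do not say whether the mutant was 1 clone. No osmotic shock was part of the design, so all values describe steady growth.

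Yeast cells keep their turgor with glycerol made inside the cell and with ions, of which potassium is the main one. The HOG pathway senses a loss of turgor through 2 branches, one starting at the histidine kinase Sln1 and the other at the membrane protein Sho1. Both converge on the kinase Pbs2, which activates the kinase Hog1. Active Hog1 raises transcription of glycerol genes and changes the flow of metabolites, while the Fps1 channel closes and keeps glycerol in.

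Values are given as log2 of the mutant over the wild-type signal, and base 2 is an assumption because the labels name no base. The mean of a gene is the average of its 2 experiment means, and the error after ± is limma's moderated standard error with n = 2 experiments. Intervals are limma's at 95% for each gene alone, without adjustment over genes. A gene passed when limma's p, adjusted by the Benjamini-Hochberg method over all 4255 genes with a value on 4 arrays, was under 0.05. The arrays held 4690 to 5403 values each, and across those 4255 genes the arrays correlated with each other at r between 0.273 and 0.796, lowest for the pairs that include array 4. Within the pairing used, r was 0.796 for arrays 1 and 2 and 0.392 for arrays 3 and 4. In the other pairing with both dyes in each experiment, it was 0.552 for arrays 1 and 3 and 0.273 for arrays 2 and 4. Arrays 2 and 3, placed in different experiments, correlated at 0.688. The ratio of the deleted TRK1 was −6.13 on array 1 and −4.60 on array 4, the arrays that list it, and that of the deleted TRK2 was −4.23 on array 4. The labels do not give the direction of the ratio, and these negative values set it for arrays 1 and 4, both with the mutant in Cy5. Neither deleted gene is listed on arrays 2 and 3, with the mutant in Cy3. Their direction was taken to be the same, and every pair of arrays correlated positively. The labels call the experiments independent and say no more about their cultures, so the p-values measure the spread between these samples, which may be technical.

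No change in the transcripts of the 10 genes was called between mutant and wild type. Their means ran from −0.60 for HOG1 to 0.63 for GPP1, and none of the 7 genes on all 4 arrays passed the test in limma, against 3.36% of all genes tested. By direction the background was 1.62% of genes higher and 1.74% lower. At an unadjusted limma p under 0.05 stood 2 of the 7, GPP1 and GPP2, where 20.2% of all genes stood. A count of 0 among 7 genes is close to that background and is no result about the set. HOG1 and STL1, not on all 4 arrays, had unadjusted limma p of 0.0127 and 0.025 in a wider fit described below. No share over all genes was counted for that fit. The median of the 7 means was −0.05, and the median of all 4255 means was −0.04. The smallest mean change of any called gene was 0.86 on the log2 scale, larger than the mean of each of these genes.

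**Figure D1:**
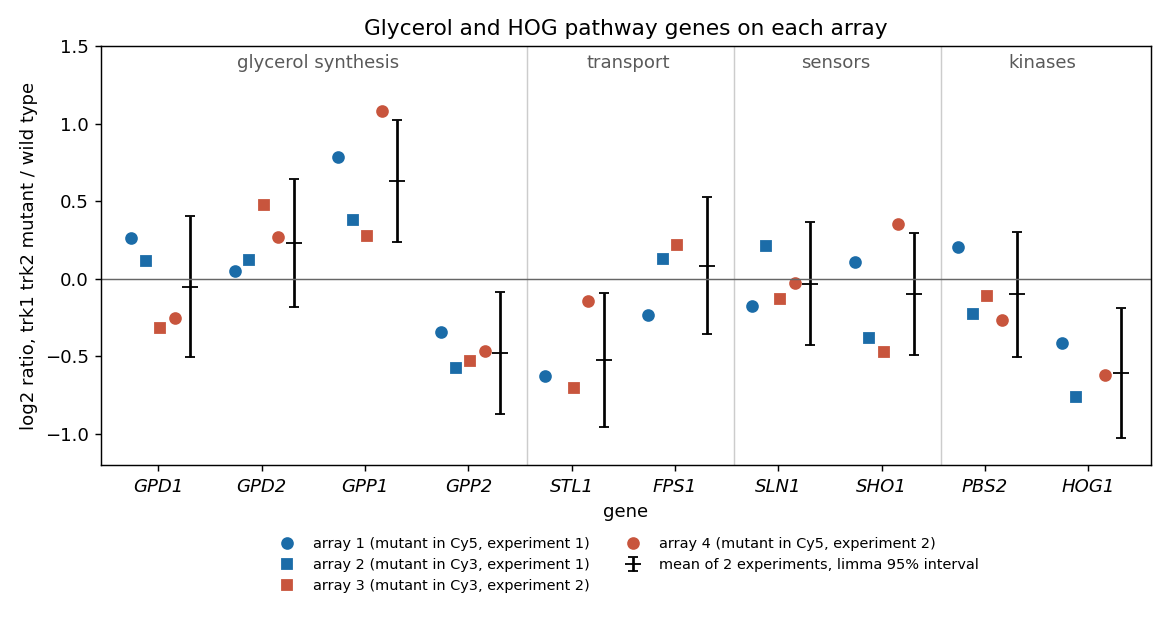
The log2 ratio of mutant over wild type of each of the 10 genes, with a point for each array (circles, mutant in Cy5; squares, mutant in Cy3; blue, experiment 1; red, experiment 2) and the mean of 2 experiments with limma's 95% interval in black. GPP1 and GPD2 lie above 0 on every array and GPP2, STL1 and HOG1 lie below 0 on every array that lists them, while the other 5 genes fall on both sides of 0.

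Glycerol is made from dihydroxyacetone phosphate in 2 steps, and each step has a pair of isoenzymes. The second step is catalysed by the glycerol-3-phosphate phosphatases Gpp1 and Gpp2, which are close in sequence. Their transcripts read in opposite directions. GPP1 (YIL053W), known as the main phosphatase of unstressed and anaerobic cells, read 0.78, 0.38, 0.28 and 1.08 on arrays 1 to 4. All 4 values were positive, and the 2 arrays with the mutant in Cy5 were the highest. Its mean was 0.63 ± 0.16, a ratio of 1.55 with an interval of 0.23 to 1.02 on the log2 scale, and its adjusted p in limma was 0.103. GPP1 ranked 168th from the top among the 4255 genes.

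GPP2 (YER062C), the isoenzyme known for its induction by osmotic stress through Hog1, read −0.34, −0.58, −0.53 and −0.46 on arrays 1 to 4. All 4 values were negative and lay within 0.235 of each other, the narrowest range among the 7 genes on 4 arrays. Its mean was −0.48 ± 0.16, a 1.39-fold lower ratio in the mutant with an interval of −0.87 to −0.08, and its adjusted p in limma was 0.172. The experiment means were −0.46 and −0.50. GPP2 ranked 482nd from the bottom of the 4255 genes.

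The ranges of the phosphatase pair over the arrays did not overlap. How many other gene pairs separate in this way was not counted, and neither gene passed the test over 4255 genes. The means of those 4255 genes had an SD of 0.44. The ratio of GPP1 exceeded that of GPP2 by 1.12, 0.95, 0.80 and 1.54 on arrays 1 to 4, a mean difference of 1.11 ± 0.09 (SD, n = 2 experiments) or 2.15-fold. An exact two-sided sign-flip test over the 2 experiments gave p = 0.5, which is the smallest it can give, so this test cannot pass with 2 experiments. Probe sequences were not used here, and cross-hybridisation between the pair was not tested. Both GPP1 and GPP2 passed in 3 of 13 alternative analyses. GPP1 had an adjusted p of 0.0226 with the other pairing of arrays into experiments and GPP2 one of 0.0404. With the experiment as a random block these values were 0.0484 and 0.0422, and the random block in effect counts dye-swapped repeats as replicates. Over the 13 alternatives the adjusted p of GPP1 ran from 0.0226 to 0.501 and that of GPP2 from 0.0404 to 0.587, highest for both without array 3.

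The first step is catalysed by the NAD-dependent glycerol-3-phosphate dehydrogenases Gpd1 and Gpd2. GPD1 (YDL022W), the dehydrogenase whose gene is a standard reporter of HOG signalling, read 0.26, 0.11, −0.32 and −0.26 on arrays 1 to 4. It was positive on both arrays of experiment 1 and negative on both arrays of experiment 2, with experiment means of 0.19 and −0.29. The mean was −0.05 ± 0.19, with an interval of −0.50 to 0.40 and an adjusted p of 0.907 in limma. A larger difference between the experiments was found in 24.1% of the 4255 genes.

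GPD2 (YOL059W), the isoenzyme known for its role in redox balance without oxygen, read 0.05, 0.12, 0.48 and 0.27 on arrays 1 to 4. All 4 values were positive, and those of experiment 2 were the higher ones. Its mean was 0.23 ± 0.17, with an interval of −0.19 to 0.65 and an adjusted p of 0.489 in limma. GPD2 minus GPD1 came to −0.21, 0.01, 0.80 and 0.53 on arrays 1 to 4, a mean of 0.28 ± 0.54 (SD, n = 2 experiments). The SD exceeded the mean, and the dehydrogenase pair was not separated by these arrays (exact two-sided sign-flip p = 1, where 0.5 is the smallest possible with 2 experiments).

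Glycerol crosses the membrane through the transporters Stl1 and Fps1, and the transcripts of both were listed on 3 arrays. Neither gene was in the test over genes on all 4 arrays, and their p-values come from a wider limma fit. It took in every gene listed at least once in each experiment. Where an experiment listed a gene on 1 array, that value counted as much as an average of both arrays. STL1 (YDR536W), the glycerol-proton symporter and one of the most strongly osmotically induced genes, read −0.63, −0.71 and −0.14 on arrays 1, 3 and 4 and was empty on array 2. All 3 values were negative, and the one on array 4 was closest to 0. Its mean was −0.53 ± 0.17, a 1.44-fold lower ratio with an interval of −0.96 to −0.09, and the adjusted p was 0.197. Experiment 1 is represented by array 1 alone, without a dye swap.

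FPS1 (YLL043W), the channel that lets glycerol out of the cell, read −0.24, 0.13 and 0.22 on arrays 1, 2 and 3 and was empty on array 4. The values fell on both sides of 0, and the mean was 0.08 ± 0.18 (interval −0.36 to 0.52, adjusted p = 0.830 in limma). Experiment 2 is represented by array 3 alone. The interval of FPS1 reaches a ratio of 1.44 upward and that of STL1 a 1.94-fold lower ratio, and the data do not exclude changes within these bounds.

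Among the osmosensors, SLN1 (YIL147C), the membrane histidine kinase that holds the pathway off in cells at normal turgor, read −0.17, 0.21, −0.13 and −0.03 on arrays 1 to 4. The values lay around 0, with a mean of −0.03 ± 0.16 (interval −0.43 to 0.36, adjusted p = 0.932 in limma). SHO1 (YER118C), the sensor of the second branch and a scaffold for Pbs2, read 0.11, −0.38, −0.47 and 0.35. It was positive on both arrays with the mutant in Cy5 and negative on both arrays with the mutant in Cy3. Its mean was −0.10 ± 0.16 (interval −0.49 to 0.30, adjusted p = 0.765 in limma).

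The dye pattern of SHO1 can be set against that of the other genes. The mean with the mutant in Cy5 was 0.23 and the mean with the mutant in Cy3 was −0.43, a difference of 0.66. The median size of this difference was 0.26 over the 4255 genes, and 9.12% of them had a larger one. GPP1 came next in the set, at 0.93 with the mutant in Cy5 against 0.33 with it in Cy3, a difference of 0.60 that 12.1% of genes exceeded. The other 5 genes on 4 arrays differed between dye orientations by 0.11 to 0.15 in size. For genes on 4 arrays each experiment mean holds both orientations once, so this difference cancels in the mean and does not enter the error of the test. It does not cancel for STL1, FPS1 and HOG1, which are each empty on an array.

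**Figure D2:**
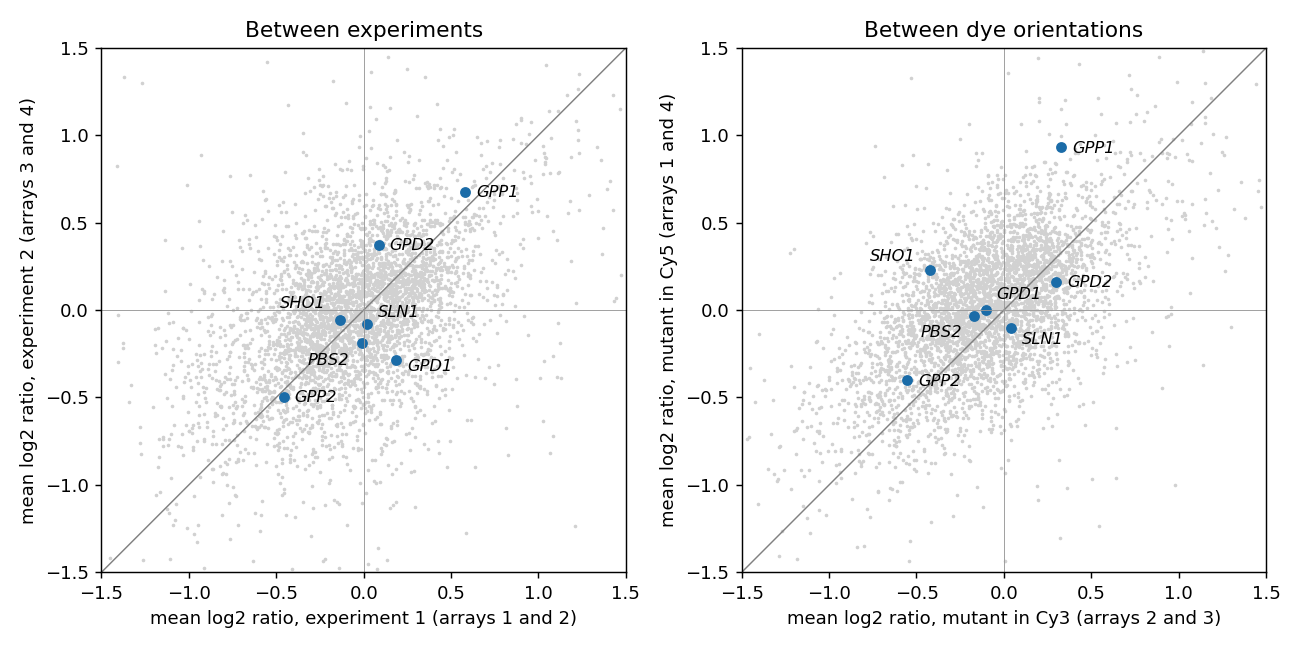
Mean log2 ratios of mutant over wild type of the 7 genes on 4 arrays (blue) among the 4255 genes (grey), for experiment 2 against experiment 1 on the left and for arrays with the mutant in Cy5 against those with it in Cy3 on the right. The line marks equal values, and 96 genes on the left and 81 on the right lie outside the axes of ±1.5. GPP1 and GPP2 lie near the line between experiments, GPD1 is off it, and SHO1 and GPP1 are farthest from the line between dyes.

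Downstream of the sensors, PBS2 (YJL128C), the kinase kinase that also serves as a scaffold, read 0.20, −0.23, −0.11 and −0.27 on arrays 1 to 4. The values were positive on array 1 and negative on the others, with a mean of −0.10 ± 0.17 (interval −0.50 to 0.30, adjusted p = 0.760 in limma). PBS2 is the neighbour of the deleted TRK1 on chromosome X in the RefSeq gene order, the one gene of the 10 that lies beside a deleted gene. The ratios of TRK1 on arrays 1 and 4 were given above, and those of PBS2 on the same arrays were 0.20 and −0.27.

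HOG1 (YLR113W), the MAP kinase at the end of the cascade, read −0.41, −0.76 and −0.62 on arrays 1, 2 and 4 and was empty on array 3. All 3 values were negative, and the experiment means were −0.59 and −0.62. Its mean was −0.60 ± 0.17, a 1.52-fold lower ratio in the mutant with an interval of −1.02 to −0.19, and its adjusted p was 0.154 in the wider limma fit. Experiment 2 is represented by array 4 alone, without a dye swap. With genes that had at least 2 values and with arrays not averaged, the adjusted p of HOG1 was 0.0807. HOG1 had the lowest mean of the 10 genes, and it did not pass in either fit.

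Of the 10 genes, 5 had 1 sign on every array that lists them: GPP1 and GPD2 above 0, and GPP2, STL1 and HOG1 below 0. STL1 and HOG1 have 3 values each, and no share over all genes was counted for such genes, so this count is no result about the set. Among the 7 genes on all 4 arrays 3 had 1 sign throughout, against 38.6% of the 4255. A mean of at least 1.5-fold with 1 sign on 4 arrays was found for 1 of the 7, GPP1, against 10.6% of all genes. The median of the 7 genes was 0.11, 0.11, −0.13 and −0.03 on arrays 1 to 4, beside −0.02, −0.09, −0.09 and 0.04 for all 4255 genes.

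**Figure D3:**
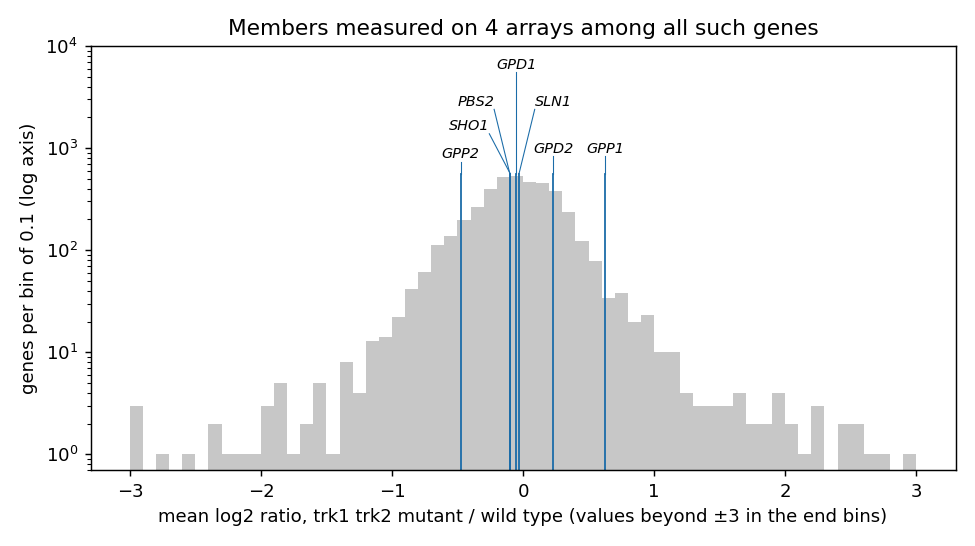
Number of genes in bins of 0.1 of the mean log2 ratio of mutant over wild type, for the 4255 genes on 4 arrays and on a log axis, with blue lines at the means of the 7 genes of the set that are among them. SHO1, PBS2, GPD1 and SLN1 stand at the centre, between −0.10 and −0.03. On the flanks stand GPP2 at −0.48, ranked 482nd from the bottom, and GPP1 at 0.63, ranked 168th from the top.

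The rest of the pathway was read from 5 lists with 49 genes, of which 34 were on all 4 arrays. Of these, 1 rose and 1 fell past the test in limma, 5.88% beside 3.36% of all genes, and both are osmotically induced targets. The signalling list covers the phosphorelay and the Sho1 branch. None of its 10 measured genes passed, and none stood at an unadjusted p under 0.05 in limma. A total of 8 had a negative mean, where 55.2% of all genes did, and the median of the means was −0.27, beside −0.04 for all genes. The list median was −0.16, −0.31, −0.18 and 0.04 on arrays 1 to 4, negative on all but array 4. The lowest was YPD1 (YDL235C), the phosphotransfer protein between Sln1 and Ssk1, at −0.20, −0.33, −0.81 and −0.29 on arrays 1 to 4. YPD1 was negative throughout, and its mean was −0.41 ± 0.17 (adjusted p = 0.255 in limma). The highest was OPY2 (YPR075C), a membrane anchor of the Sho1 branch, at 0.07 ± 0.16 (adjusted p = 0.840 in limma). The kinase kinase kinase gene SSK2 was listed on array 4 alone and its relative SSK22 on none.

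The list of Hog1 phosphatases with the adaptor NBP2, which brings the phosphatase Ptc1 to Pbs2, had 4 of its 6 genes on all 4 arrays. None of the 4 passed or stood at an unadjusted p under 0.05 in limma, and the median was −0.01. PTP3 (YER075C), a tyrosine phosphatase that acts on Hog1, was lowest at −0.45 ± 0.23 (adjusted p = 0.328 in limma). NBP2 (YDR162C) was highest at 0.20 ± 0.17 (adjusted p = 0.535 in limma). It read −0.34, 0.98, 0.42 and −0.25 on arrays 1 to 4, negative on both arrays with the mutant in Cy5 and positive on both with it in Cy3, and its mean was 0.37 without array 4. The list of transcription factors and kinases downstream of Hog1 also had 4 genes on all 4 arrays, of 8, and none of these passed or stood at an unadjusted p under 0.05. The stress factor MSN4 (YKL062W) was lowest at −0.35 ± 0.20 (adjusted p = 0.372 in limma), and MSN1 (YOL116W), a transcriptional activator, was highest at 0.27 ± 0.16 (adjusted p = 0.411 in limma).

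Glycerol use, the route through dihydroxyacetone and the regulators of Fps1 made up a list of 11 genes. Of these, 8 were on all 4 arrays, 0 passed in limma and 1, GUP1, stood at an unadjusted p under 0.05. GUP1 (YGL084C), a membrane O-acyltransferase first described in glycerol uptake, read −0.39, −0.50, −0.48 and −0.54 on arrays 1 to 4. It was negative on all 4 arrays, and its mean was −0.48 ± 0.16 (adjusted p = 0.172 in limma, and 0.0390 to 0.570 over the alternatives, with 3 of 13 under 0.05). ASK10 (YGR097W), a regulator that keeps Fps1 open, was highest at 0.37 ± 0.16 (adjusted p = 0.281 in limma) and was positive on all 4 arrays. The median of the list was −0.26, and it was −0.46 on array 4 alone.

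The osmotically induced targets of Hog1 showed the widest spread of the lists. Of 12 genes 8 were on all 4 arrays, 1 rose, 1 fell and 1 more stood at an unadjusted p under 0.05 in limma. YML131W, a putative oxidoreductase, read 2.15, 2.69, 2.24 and 1.74 on arrays 1 to 4, all well above 0, with a mean of 2.20 ± 0.18 (adjusted p = 0.00354 in limma, and 0.000933 to 0.252 over the alternatives, highest without array 3). HSP12 (YFL014W), a membrane-protecting stress protein, read −3.01, −3.41, −4.08 and −6.76, with a mean of −4.32 ± 0.47 (adjusted p = 0.00835 in limma, and over the alternatives 0.00181 to 0.298, over the threshold without array 3 and, at 0.0521, with robust shrinkage). Its ratio on array 4 was below that of the deleted TRK1, and whether the mutant channel held more than background there is unknown. Both genes are also controlled by stress factors other than Hog1. RTC3 (YHR087W), a protein linked to RNA metabolism, read 0.08, −0.54, −0.74 and −2.12, with a mean of −0.83 ± 0.29 (adjusted p = 0.178 in limma). Without array 4 the mean of RTC3 was −0.49, and over the alternatives it ran from −1.18 to −0.49.

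The median of the target list differed between arrays. It was −1.64 on array 4, where that of arrays 1 to 3 was 0.20, 0.16 and −0.07. With array 4 left out, the median of the means was 0.06, against −0.22 with it. The 7 genes of the glycerol and HOG set measured on 4 arrays had a median of −0.03 on array 4. What sets array 4 apart in the target list was not tested.

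**Figure D4:**
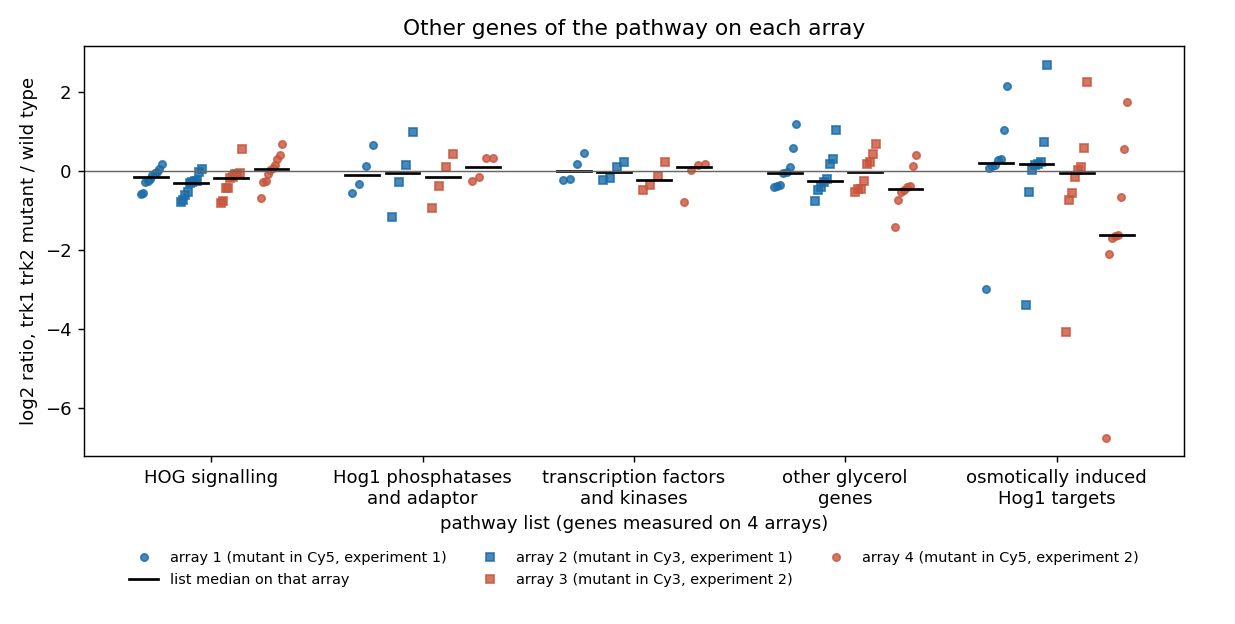
The log2 ratio of mutant over wild type of the 34 other pathway genes on 4 arrays, by list and array, with black bars at the median of the list on that array (circles, mutant in Cy5; squares, mutant in Cy3; blue, experiment 1; red, experiment 2). In the osmotically induced targets, YML131W lies above and HSP12 below the rest on every array, and the median on array 4 is −1.64. The other glycerol genes have a median of −0.46 on array 4, and the medians of the signalling list run from −0.31 on array 2 to 0.04 on array 4.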

How the data were processed

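Gene expression was measured on 4 dual-colour arrays. Per the labels' protocols, total RNA (8 µg) from 50 ml cultures was reverse transcribed with oligo(dT) and labelled indirectly with Cy3 or Cy5. The values are log2 ratios deposited by the authors. Per the labels, the authors dropped spots smaller than 120 µm or dimmer than 100 units, and the table is empty there. How the ratios were scanned, normalized and centred, and to which base, is not given in the sources used here. The ratios were read as base 2. Scanner intensities were not used here.

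The descriptions' wording put arrays 1 and 2 in experiment 1 and the other two in experiment 2. Arrays of an experiment were averaged, and the 2 means were tested against 0 with limma 3.58.1 (lmFit, eBayes, prior of 5.33 degrees of freedom) in R 4.3.3, with Benjamini-Hochberg adjustment over 4255 genes. The procedure was run on simulated data that held no dye effect, unlike these arrays, and the outcome is not used as support here. Names of 5662 of the 6212 rows came from the locus tags of a RefSeq table (assembly R64). The members and lists were chosen with earlier results of these data known. By rule, all 10 genes, TRK1 and TRK2 were named, and from each list the called genes and the highest and lowest mean. SSK2, SSK22, RTC3, HKR1, RGC1, HOR7, NQM1, YLR112W, GCY1, GUT1 and GUT2 were chosen after their values were seen. Alternatives changed the pairing, the replicate unit, the scaling, the filter on empty cells, the shrinkage and the arrays used.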

Additional observations from a re-analysis of the deposited data

Results flagged for a closer look

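Only the 41 genes of the set and the pathway lists with 4 values were tried. In 4 of them 1 array lay far from the other 3, with a gap to the nearest that exceeded Dixon's 95% critical value as a share of the whole range. Chance flags about 1 in 20 genes. None of the 4 belongs to the glycerol and HOG set itself. HKR1, a sensor of the Sho1 branch, read 0.678 on array 4, against −0.60, −0.74 and −0.77 on arrays 1 to 3. RGC1, a regulator of Fps1, read 0.209 on array 3, against −0.37, −0.29 and −0.38 on arrays 1, 2 and 4. HOR7, an osmotically induced gene, read −0.674 on array 4, against 0.12, 0.22 and 0.10 on arrays 1 to 3. NQM1, a transaldolase, read −1.664 on array 4, against 1.02, 0.74 and 0.56 on arrays 1 to 3. In 3 of these 4 genes the distant array was array 4, and the reason was not tested.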

How the results depend on the processing

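The alternatives gave 106 values for the 10 genes. Of these 93 kept their direction without passing the threshold, 6 passed the threshold and 7 turned sign. For HOG1, STL1 and FPS1, centred arrays, scaled arrays and left-out arrays gave a mean but no test. Those values could only keep or turn their sign. The 6 that passed were GPP1, higher (1 gene with the other pairing of arrays, with a dye term on separate arrays, and with a random block), and GPP2, lower (1 gene with the other pairing, with 4 separate arrays, and with a random block). Those that turned sign were means close to 0. With arrays centred on their medians GPD1 stood at 0.0014 and SLN1 at 0.021. With single arrays left out PBS2 ran from −0.21 to 0.0070, SLN1 from −0.13 to 0.065 and SHO1 from −0.30 to 0.11, and none of the 7 genes on 4 arrays passed. FPS1, listed on 3 arrays, ran from −0.0085 to 0.17 there. Each ratio compares the strains within an array, so the test against 0 is itself paired.

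Over all 4255 genes, 69 were higher and 74 lower. With the other pairing these counts were 255 and 473, and with 4 separate arrays 163 and 250. With a random block they were 185 and 292, and with arrays centred 106 and 99. A dye term gave 103 higher and 142 lower. Genes in each experiment at least once gave 40 and 39, and genes with at least 2 values, not averaged, 130 and 179. With single arrays left out, higher genes ran from 0 to 96 and lower genes from 0 to 121, both 0 in limma without array 3, where 385 genes stood at an unadjusted p under 0.05. There were 449 genes past 1.5-fold with 1 sign on 4 arrays and 117 past 2-fold. In the pathway lists, genes that fell numbered 3 with the other pairing, 2 with 4 separate arrays, 2 with a random block and 0 with robust shrinkage, where HSP12 had an adjusted p of 0.0521. With single arrays left out, 0 to 1 rose and 0 to 1 fell. The cause of these shifts was not tested. No spot brightness was used, so the depth of a value is unknown.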

Other observations

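Among the 20 genes that neighbour the 10 glycerol and HOG genes in the RefSeq gene order, 14 were on all 4 arrays. Of these 1 passed the test in limma, against 3.36% of all genes tested, and this count is no result about the neighbours. The gene that passed was YLR112W, next to HOG1 on chromosome XII, an open reading frame singled out after its value was seen. It read −0.97, −1.36, −1.57 and −0.51 on arrays 1 to 4, with a mean of −1.10 ± 0.16, a 2.15-fold lower ratio in the mutant (adjusted p = 0.0245 in limma). It passed in 11 of 13 alternatives, missing the threshold without array 2 (adjusted p = 0.0716) and without array 3 (0.520), and its adjusted p was 0.00702 or more in all of them. HOG1 itself read −0.41, −0.76 and −0.62 on arrays 1, 2 and 4. Cross-hybridisation between the neighbours was not tested.

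Of the other glycerol genes, GCY1, an enzyme of the dihydroxyacetone route, read 1.18, 1.04 and 0.67 on arrays 1, 2 and 3 and −1.43 on array 4. Its mean was 0.36 ± 0.34 (adjusted p = 0.578 in limma), and without array 4 it was 0.89 (adjusted p = 0.0549). GUT1 and GUT2, the glycerol kinase and the mitochondrial dehydrogenase of glycerol use, were negative on all 4 arrays, with means of −0.42 ± 0.18 and −0.31 ± 0.18 (adjusted p = 0.257 and 0.385 in limma).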
